A study of Mus musculus with 3 samples.

Results

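Plasmacytoid dendritic cells (pDC) were picked from single-cell RNA libraries of mouse inguinal fat by a gate on raw counts of unique molecular identifiers (UMIs, each standing for 1 captured RNA molecule). A barcode was a member if it held at least 2 UMIs of Siglech, no UMI of Cd3e, Cd3d, Cd3g or Ms4a1, and at most 2 UMIs of C1qa, C1qb and C1qc together. It also had to hold at least 500 detected genes and at most 15% mitochondrial UMIs. This gave 318 members of 16838 barcodes that met the gene and mitochondrial limits (the kept barcodes), out of 20667 deposited. Of 397 deposited barcodes with at least 2 Siglech UMIs, 20 failed these limits and 59 held too many T cell, B cell or macrophage UMIs.

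The cells were the stromal vascular fraction of C57BL/6 mice, the cells of fat that remain once the fat-filled adipocytes are removed. Each of 3 groups was 1 library made with 10x Chromium 3' v3 chemistry. The saline group was the control. The cold group was kept at 4 C for 3 days. The CL group received CL 316,243, an agonist of the β3-adrenergic receptor, at 1 mg/kg into the peritoneum for 3 days. The sources used here do not say how old the animals were, how many stood behind a library, whether the cold animals were injected, or whether the inguinal lymph node was removed. With 1 library per group no test was possible, and every interval below covers counting error only. A difference between treatments and one between animals, dissections or library preparations cannot be told apart.

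pDC are rare dendritic cells of the blood, lymphoid organs and tissues that are best known for making type I interferon. They read viral RNA and DNA in endosomes through the receptors TLR7 and TLR9, which signal through MyD88 to the transcription factor IRF7 and switch on the interferon alpha and beta genes. The secreted interferon binds IFNAR on the same and other cells and, through STAT2 and IRF9 among others, induces a large set of interferon response genes. The transcription factor TCF4 holds the pDC state, and the surface proteins SIGLEC-H, BST2 and CCR9 are its usual marks in mice.

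There were 153 members in saline, 79 in cold and 86 in CL, with 648633, 411339 and 314885 UMIs. The members' median depth was 4045, 5103 and 3455 UMIs per barcode, and their median mitochondrial share was 7.1%, 7.33% and 5.94%. No member barcode sequence occurred among the members of another library, and 4 to 9 kept barcodes were shared between any pair of libraries. Some members carried markers of other cells. After the values were seen, 23 members were counted that held at least 10 UMIs of Lyz2, of Ccl5 or of the markers of 1 of these types: fat progenitors, macrophages, neutrophils, mast cells, mature migratory dendritic cells, B, T, natural killer or endothelial cells. At least 100 haemoglobin UMIs also counted (12 saline, 5 cold and 6 CL members in all). The monocyte list, which holds Ly6c2, and the lists of conventional dendritic cells were not used for this count. The lists in the text were recomputed without them. Haemoglobin transcripts were at 2172 counts per 1000000 UMIs (CPM) in saline, 1279 in cold and 635 in CL members.

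The markers that the gate did not read were present in nearly all members. Bst2, a surface protein that tethers budding virus, was detected in 99.1%, Tcf4 in 99.4% and the gut and thymus homing receptor Ccr9 in 88.4% of the 318 members, and 281 members (88.4%) held all 3. In fibroblast-like stromal barcodes (at least 2 UMIs of Pdgfra and none of Ptprc), with median depths from 6667 to 7724 UMIs, the same genes were detected in 54.7%, 74.9% and 0.072%. Summed over the pooled members, Ccr9 was at 956 CPM, against 3.84 CPM in all other kept barcodes, 249-fold higher. Bst2 was at 2995 against 470 CPM and Tcf4 at 1589 against 222 CPM.

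Levels rose stepwise across the gate's edge, and 16 of the 63 barcodes with 1 Siglech UMI (25.4%) held Bst2, Ccr9 and Tcf4. Ccr9 was at 2.39 CPM in 9436 barcodes with no Siglech UMI that met the other conditions and at 128 CPM in the 63 with 1 Siglech UMI, just outside the gate. It was at 460 CPM in the 15 members with 2 Siglech UMIs and 623 CPM in the 23 with 3. Members with 4 to 7 and with 8 or more Siglech UMIs had 874 and 1058 CPM. Irf8, a transcription factor of dendritic cells and monocytes, went from 741 CPM just outside to 1411 CPM just inside the gate and to 3083 CPM in members with 8 or more. Members with 8 or more Siglech UMIs made up 75.8% in saline, 64.6% in cold and 37.2% in CL. Since the gate reads Siglech, its level in the libraries is a description only (2619, 1877 and 1880 CPM).

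The genes that set the members apart from all other kept barcodes were a known pDC set, here a description since the gate chose the cells. Of 20 pDC surface and effector genes, all 20 were past 2-fold higher in the members; of all 14859 genes with at least 20 UMIs, 19.0% were. Klk1, a tissue kallikrein, was at 458 CPM against 0.461 CPM (995-fold), and Dntt, the terminal transferase that adds bases at antigen receptor joints, at 189 against 0.432 CPM (438-fold). Cox6a2, a muscle and heart form of a respiratory chain subunit, was at 551 against 1.61 CPM (342-fold) and was detected in 70.8% of members and 0.144% of stromal barcodes. The activating receptor Cd300c was 161-fold and the transcription factor Runx2 52.4-fold higher. Klk1 was also low in the other dendritic cells, at 1.6 CPM in type 1 (cDC1; at least 2 UMIs of Xcr1 and Clec9a) and 3.25 CPM in type 2 (cDC2; at least 2 UMIs of Cd209a) conventional dendritic cells.

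Transcription factors, lymphoid genes and the secretory apparatus followed. Of 12 genes listed as pDC transcription factors, 8 were past 2-fold higher than in other kept barcodes. Of the rest, 2, Irf7 and Crip1, were past 2-fold lower (background 21.8% lower). Crip1, a small LIM-domain protein, is not an established transcription factor but was counted in this list. Spib, Runx2, Bcl11a and Irf8 were among the higher ones, with log2 ratios of 4.33, 5.71, 3.38 and 3.77. Of 14 lymphoid genes measured, 11 were past 2-fold higher, with Ly6d at 2469 CPM and Cd4 at 194 CPM in the pool, while Cd79a, part of the B cell receptor, was lower (-4.81). Rag1 held 1 UMI and Rag2 none. Of 24 genes of the secretory apparatus, which folds and exports proteins, 7 were past 2-fold higher (background 19.0%) and none past 2-fold lower, with a median log2 ratio of 0.63.

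Markers of other cell types differed by type. All 5 natural killer markers (Ncr1, Klrb1c, Nkg7, Gzma and Prf1) were at 0, as were Xcr1 and Itgae of cDC1; the zeros of Ms4a1 and the Cd3 genes were set by the gate. Fat progenitor markers summed to 1733, 362 and 1391 CPM in the saline, cold and CL members, and 8 members with at least 10 such UMIs held 1083 of 1124, 134 of 149 and 419 of 438 of them. Macrophage markers were at 282, 1237 and 299 CPM. Of the 509 macrophage marker UMIs of the cold members, 488 lay in 3 barcodes. Monocyte markers were at 1150, 5711 and 2595 CPM, against 5434 CPM in other kept barcodes, and 19, 20 and 24 members held at least 10 such UMIs. Most came from Ly6c2 and Lyz2, with 1699 and 1944 UMIs in the pooled members. cDC2 markers were at 678, 705 and 537 CPM, and in the pool higher than in other kept barcodes (654 against 407 CPM). Mature migratory dendritic cell markers were at 148, 26.7 and 28.6 CPM, and 3 saline members held 66 of the 96 saline UMIs.

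**Figure D1:**
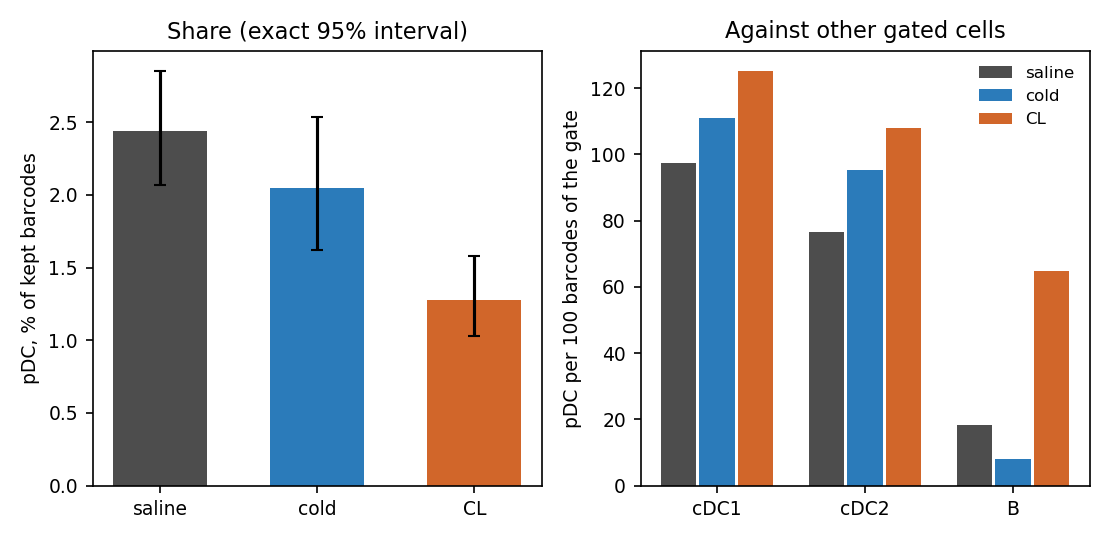
Left, pDC as a percentage of kept barcodes in each library, with exact 95% Clopper-Pearson intervals; right, pDC per 100 barcodes of the cDC1, cDC2 and B cell gates. The CL library is lowest against all kept barcodes (1.28%) and highest against B cells (64.7 per 100).

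pDC made up a smaller part of the CL library. They were 153 of 6271 kept saline barcodes (2.44%, exact Clopper-Pearson 95% interval 2.07 to 2.85%), 79 of 3862 cold barcodes (2.05%, 1.62 to 2.54%) and 86 of 6705 CL barcodes (1.28%, 1.03 to 1.58%). The log2 ratio of shares was -0.93 (-1.31 to -0.55) for CL over saline, -0.67 (-1.11 to -0.24) for CL over cold and -0.25 (-0.64 to 0.13) for cold over saline. The saline and cold intervals overlap, and the CL interval lies below both. Among barcodes with a UMI of Ptprc, the pan-leukocyte protein CD45, the shares were 3.82%, 3.2% and 1.81%.

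The order depended on the denominator. Per 100 cDC2 there were 76.5, 95.2 and 108 pDC, and per 100 cDC1 97.5, 111 and 125. These ratios had intervals that include 0 on the log2 scale (CL over saline 0.49, -0.04 to 1.02, for cDC2 and 0.35, -0.2 to 0.91, for cDC1). Per 100 B cells (at least 2 UMIs of Ms4a1) there were 18.2, 8.17 and 64.7, as the B gate held 842, 967 and only 133 barcodes. B cells fill the inguinal lymph node, and the part of lymph node tissue in these shares was not tested.

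The members carried no interferon transcript in any library. Over 21 interferon genes of the matrix, 13 Ifna genes, Ifnab, Ifnb1, Ifne, Ifnk, Ifnz, Ifnl2, Ifnl3 and Ifng, the 318 members held 0 UMIs among 1374857. A count of 0 allows up to 2.18 CPM for the pooled members, and up to 4.63, 7.29 and 9.53 CPM in the saline, cold and CL members. It allows up to 0.943% of members with such a UMI, or 1.96%, 3.8% and 3.49% by library, which limits members with a UMI and not members that express the genes. The 63 barcodes with 1 Siglech UMI held none either, and neither did the 59 and 20 barcodes with at least 2 that the gate left out for other cells' markers and for the gene and mitochondrial limits. At this depth, RNA of a few molecules in a small fraction of the cells was not detectable.

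Interferon transcripts were found in other cells. Ifnb1 (chromosome 4, 88522025 to 88522774, minus strand, GRCm38), the gene of interferon beta, had 9 UMIs in saline, 0 in cold and 12 in CL, in 16 barcodes outside the gate. Of these barcodes 14 held at least 3 UMIs of the myeloid gene Lyz2 and 8 at least 3 of the C1q genes. All type I genes together came to 25 UMIs in 20 barcodes among all other kept barcodes, a far larger pool than the members. At so low a level, the 0 type I UMIs of the members do not show that pDC lie below other cells. Ifng, the type II interferon of T and natural killer cells, had 628 UMIs in 174 barcodes (127 saline, 371 cold and 130 CL).

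The receptor for type I interferon was well expressed and even between libraries. Ifnar1 was at 281, 233 and 248 CPM and Ifnar2 at 245, 284 and 279 CPM in saline, cold and CL. Both were past 2-fold higher in pDC than in other kept barcodes (log2 2.12 and 1.73). Of the interferon gamma receptor chains, Ifngr2 was at 54, 112 and 69.9 CPM (cold over saline 1.05, 0.39 to 1.73; 0.96 with median-of-ratios scaling). Ifngr1 was at 44.7, 102 and 50.8 CPM (1.19, 0.47 to 1.93), but its ratio was 0.4 without the 23 members with markers of other cells and 0.66 without its highest barcode in each library. Socs3, an inhibitor of cytokine signalling, was lowest in CL, at 130, 94.8 and 28.6 CPM (CL over saline -2.18, -3.36 to -1.19).

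Interferon response genes were higher in the CL members than in the saline members. Summed without Bst2, 32 of them made up 1199 CPM in saline (778 UMIs), 963 CPM in cold (396) and 4745 CPM in CL (1494), 3.96-fold more in CL than in saline (log2 1.98, 1.86 to 2.11). This sum takes every gene, whatever its level. Of 33 list genes in the matrix, 21 had at least 20 UMIs over the CL and saline members. All 21 were above 0 and 16 were past 2-fold higher in CL, with a median log2 ratio of 1.87; 1 of the 16, Ifi44 at 1.17, stood at 0.77 without the 23 members with markers of other cells. Of all 5352 genes measured in this comparison, 56.8% were above 0, 5.74% were past 2-fold higher and the median was 0.09. Most of these genes passed the UMI minimum through the CL library, so the count is a description. In cold over saline, 14 list genes were measured, with 0 past 2-fold higher and 1, Ifi44, lower; of all 5625 genes, 6.04% were past 2-fold higher and 5.6% lower. The cold median was -0.27, and it was 0.06 without the 23 members with markers of other cells. CL over cold shares a library with each of the other comparisons. It had 16 of 19 list genes past 2-fold higher, against 4.68% of all 4593 genes.

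Single genes showed the same order of libraries. Ifi27l2a (chromosome 12, 103442167 to 103443680), a small interferon-induced mitochondrial protein, was at 122 CPM in saline, 94.8 in cold and 1197 in CL, a log2 ratio of 3.3 (2.94 to 3.67) for CL over saline. Its UMIs lay in 26.1%, 26.6% and 69.8% of members, or 15.6%, 13.1% and 59.2% at an equal depth of 2000 UMIs, for which 5, 2 and 3 shallower members were left out. Stromal barcodes, themselves at 1147 CPM, held it in 70.6% and give no background level for this gene. Isg15 (chromosome 4, 156199424 to 156200818), a ubiquitin-like antiviral protein, was at 20, 17 and 210 CPM (3.39, 2.51 to 4.37). Irf7 (chromosome 7, 141262706 to 141266481), the factor that drives the interferon alpha genes, was at 80.2, 70.5 and 419 CPM (2.39, 1.91 to 2.88). Saline and cold lie close together in all 3 genes, and CL above both with intervals that do not overlap theirs.

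The membrane protein Ifitm3, which blocks virus entry, was at 143, 117 and 769 CPM (CL over saline 2.42, 2.07 to 2.78). The nucleic acid sensor Zbp1 was at 9.25, 9.72 and 69.9 CPM (2.92, 1.57 to 4.51). Slfn5 and Phf11b stood at 2.72 and 2.34, and the enzyme Rsad2, viperin, at 2.11 (1.01 to 3.29). The signalling genes Stat2 and Irf9 stood lower, at 0.71 (0.14 to 1.27) and 0.85 (0.06 to 1.63). Bst2, itself an interferon response gene, was at 2605, 3343 and 3344 CPM, higher than saline by the same log2 ratio of 0.36 in cold and in CL.

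**Figure D2:**
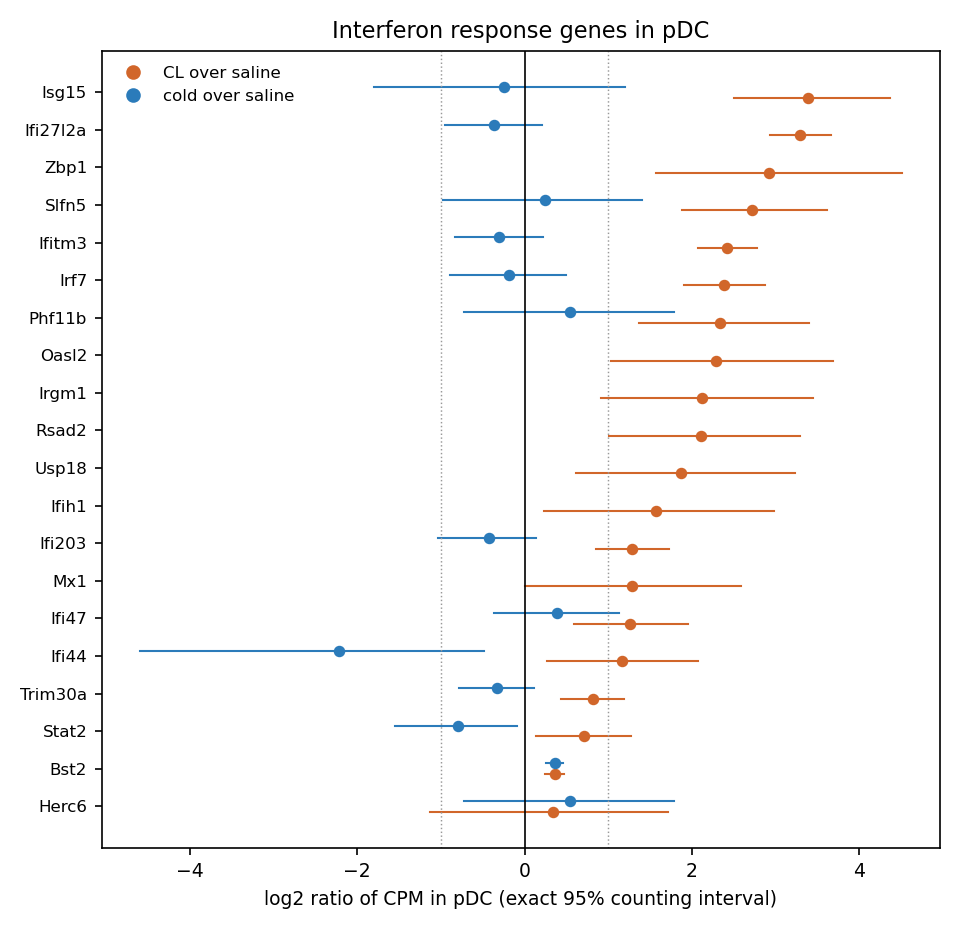
Log2 ratios of CPM in pDC for 20 of the 21 interferon response genes with at least 20 UMIs over the CL and saline members; lines are exact 95% counting intervals, and dotted lines mark 2-fold. All 20 CL values drawn (orange) lie above 0 and 16 lie past 2-fold, while the cold values (blue, shown for genes that reached 20 UMIs there) lie on both sides of 0.

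The CL difference was seen in other cells too. For the genes of the same list that reached 20 UMIs there, the median CL over saline log2 ratio was 1.94 in B cells, 2.65 in cDC2, 2.51 in stromal cells and 2.57 in all other kept barcodes, against 1.87 in pDC. The numbers of genes behind these medians differ, and a difference between pDC and these cells was not tested. In pooled level, 24 of 33 list genes were past 2-fold lower in pDC than in all other kept barcodes, against 21.8% of all genes. The median log2 ratio was -1.94. The libraries weigh differently in these pools, as CL gave 86 of 318 members and 6705 of the 16838 kept barcodes. The part of this in the ratio was not tested. The summed level in CL was 4745 CPM in pDC, 3006 in B cells, 10466 in cDC2 and 12717 in stromal cells.

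The CL members were spread widely. Per 10000 UMIs of a barcode, the 32 genes summed to a median of 8.45 in saline (lowest 0, highest 143), 6.07 in cold (0 to 75.5) and 24.6 in CL (0 to 209). The saline members' 90th percentile was 19, and 16 of 153 saline, 8 of 79 cold and 50 of 86 CL members (58.1%) lay above it. So the CL members ranged from values like those of saline to several times higher. In CL, members with 2 to 7 Siglech UMIs held 5956 CPM and those with 8 or more 2815 CPM, and in saline the values were 1497 and 1110 CPM, so CL was above saline at both Siglech levels.

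**Figure D3:**
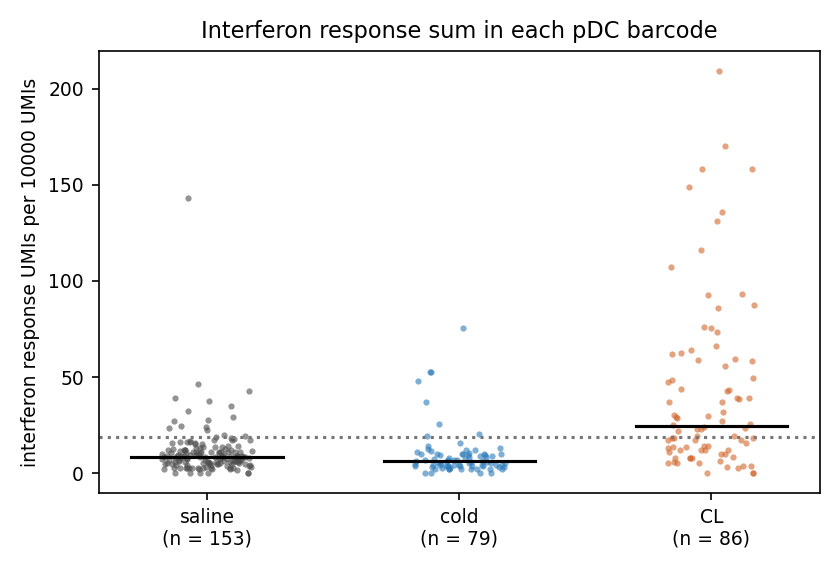
Each point is 1 pDC barcode; the vertical axis is the summed UMIs of 32 interferon response genes (without Bst2) per 10000 UMIs, the black bar the library median and the dotted line the saline 90th percentile. CL has a median of 24.6 against 8.45 in saline and 6.07 in cold, with many CL barcodes at saline levels.

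Promoter sequences of these genes are shown because many genes of the list were higher together. In RefSeq windows of 300 bases (250 before to 50 after the start, GRCm38.p6) the core of the interferon-stimulated response element, here GAAA, any 2 bases and GAAA on either strand, occurred in 16 of 26 matched list genes (61.5%) and in 3.99% of all 27025 genes in the table. Of the 16 genes past 2-fold higher in CL, 12 were matched and 8 held it. The 250 bases before the start of Isg15 (chr4:156200819-156201068, minus strand), Rsad2 (chr12:26456453-26456702, minus strand) and Irgm1 (chr11:48871421-48871670, minus strand) follow, with matches in capitals; the 3 matches of Isg15 overlap, as do the 2 of Irgm1.
Isg15: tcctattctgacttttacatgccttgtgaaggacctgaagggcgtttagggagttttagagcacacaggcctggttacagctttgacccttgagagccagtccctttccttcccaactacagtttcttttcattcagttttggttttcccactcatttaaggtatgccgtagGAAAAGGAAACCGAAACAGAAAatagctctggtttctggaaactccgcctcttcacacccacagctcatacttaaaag
Rsad2: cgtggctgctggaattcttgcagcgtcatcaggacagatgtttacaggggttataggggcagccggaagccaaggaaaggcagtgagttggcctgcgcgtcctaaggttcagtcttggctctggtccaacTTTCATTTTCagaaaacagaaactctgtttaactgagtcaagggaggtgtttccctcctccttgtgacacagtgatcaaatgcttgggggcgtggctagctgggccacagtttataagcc
Irgm1: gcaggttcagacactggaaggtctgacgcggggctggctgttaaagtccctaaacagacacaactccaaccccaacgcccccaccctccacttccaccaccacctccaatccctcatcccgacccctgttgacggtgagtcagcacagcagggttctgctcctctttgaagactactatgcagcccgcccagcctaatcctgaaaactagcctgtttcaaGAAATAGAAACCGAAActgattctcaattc
A match describes the letters only.

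Genes of the sensing pathway upstream of interferon were detected in all 3 libraries, some of them higher in CL. Of 20 nucleic acid sensing genes, 12 reached 20 UMIs over CL and saline, and 3 were past 2-fold higher in CL (background 5.74%), Tlr7, Myd88 and Irf7. The 20 genes, Irf7 among them, summed to 1881 CPM in saline, 1969 in cold and 2490 in CL (CL over saline 0.4, 0.27 to 0.54). The median log2 ratio of the 12 was only 0.14, against 0.09 for all genes measured. For this list the median was 0.13 in B cells, -0.14 in cDC2, 0.14 in stromal cells and 0.58 in all other kept barcodes. Tlr7, the endosomal RNA sensor, was at 67.8, 70.5 and 143 CPM (1.07, 0.44 to 1.71; 0.95 without the 23 members with markers of other cells), and the adaptor Myd88 at 29.3, 43.8 and 63.5 CPM (1.12, 0.14 to 2.1). The DNA sensor Tlr9 held 5 UMIs in all. The chaperone Unc93b1, which carries these receptors to endosomes, was at 464, 467 and 492 CPM. In cold over saline, 0 of 12 sensing genes were past 2-fold in either direction.

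The pDC transcription factors were lower in cold. Of the 12 listed genes, among them Crip1 at -0.39, 11 were below 0 in cold over saline (41.2% of all genes were). None was past 2-fold, and the median log2 ratio was -0.47. The shift was not particular to pDC, as the median of the same 12 genes was -0.38 in B cells and -0.38 in cDC2. It was -0.06 in all other kept barcodes, and 0.08 in stromal cells, where 9 were measured. In pDC, Irf8 was at 3433 CPM in saline, 1760 in cold and 2772 in CL (cold over saline -0.96, -1.09 to -0.84), with a median of 15, 8 and 10 UMIs per barcode. Bcl11a stood at -0.74 and Runx2 at -0.67 in cold. Tcf4 differed little, at 1673, 1388 and 1680 CPM, and Spib was higher in cold, at 398, 549 and 584 CPM (0.47, 0.2 to 0.73). The 12 genes summed to 8373, 5657 and 8032 CPM. Id2, whose protein blocks TCF4 and other E proteins, held 65, 9 and 1 UMIs, in 20, 4 and 1 barcodes. Its log2 ratio for CL over saline was -4.98 (-10.31 to -2.45), and -2.72 without the 23 members with markers of other cells.

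Heat shock genes were the clearest difference of saline from both other libraries. Of 11 chaperone genes, 10 were past 2-fold lower in cold than in saline (background 5.6%), with a median log2 ratio of -2.4, and 5 were past 2-fold lower in CL (background 5.19%), with a median of -1. Summed, they took 16134 CPM in saline, 4361 in cold and 7714 in CL. Hspa1a (chromosome 17, 34969190 to 34972156, minus strand), an inducible HSP70, had 1907 CPM in saline, 24.3 in cold and 502 in CL, from 1237, 10 and 158 UMIs in 101, 4 and 22 barcodes. The cold over saline log2 ratio was -6.29 (-7.36 to -5.41), 78.4-fold. Its near copy Hspa1b, whose reads can be split with it, was at 1818, 21.9 and 448 CPM. At an equal depth of 2000 UMIs, 60.3% of saline, 2.93% of cold and 20.3% of CL members held Hspa1a.

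Per barcode, saline members held 0 to 45 Hspa1a UMIs with a median of 3, cold members 0 to 4 and CL members 0 to 47, both with a median of 0. The libraries overlap at 0, and high counts were found in saline and in some CL barcodes. Among the other chaperones, Hsp90aa1 was at 4030, 707 and 1572 CPM (cold over saline -2.51, -2.69 to -2.33). Hsph1, a co-chaperone of HSP70, was at 389, 24.3 and 159 CPM (-4, -5.08 to -3.1), and Dnajb1 at 475, 90 and 260 CPM (-2.4, -2.93 to -1.91). The constitutive Hspa8 and Hsp90ab1 differed less, at -1.05 and -0.92. Hspb1, a small heat shock protein, was at 54, 0 and 25.4 CPM and counts among the 10 at the bound set by 3 counts. CL lay above cold in all 10 genes measured in that comparison (47.2% of all genes did), and 6 were past 2-fold higher. Among the 57 members with at most 5% mitochondrial UMIs (23 saline, 8 cold and 26 CL) the cold over saline median was -1.31 and Hspa1a stood at -3.56.

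Immediate early genes, which answer stimulation within minutes, were in part lower too. Of 13 measured, 5 were past 2-fold lower in cold than in saline (Jun, Egr1, Fos, Klf6 and Btg2; background 5.6%). In CL 3 were past 2-fold lower (Jun, Fos and Btg2; background 5.19%) and Ier3 was higher, at 1.36. The medians were -0.81 and -0.64. Jun (chromosome 4, 95049034 to 95052222, minus strand), a subunit of AP-1, was at 3467 CPM in saline, 105 in cold and 667 in CL, in 139 of 153, 13 of 79 and 35 of 86 members. Cold over saline was -5.05 (-5.52 to -4.62) and CL over saline -2.38 (-2.59 to -2.17). Fos was at 2274, 476 and 816 CPM, while its partner Junb was at 598, 771 and 584 CPM. Klf2, Dusp1 and Gem, which are not in this list, were lower in cold too. Klf2, a factor of resting lymphocytes that was chosen after its values were seen, was at 2029, 321 and 610 CPM (cold over saline -2.66, -2.93 to -2.4). Dusp1, a phosphatase that switches off MAP kinases, was at 481, 63.2 and 88.9 CPM (-2.93, -3.56 to -2.35). Gem, a small GTPase, held 108, 3 and 18 UMIs. Among members with at most 5% mitochondrial UMIs, of which cold has only 8, several of these ratios fell short of 2-fold. There Dusp1 stood at -0.66 in cold and -0.84 in CL, Fos at -0.84 and -0.78, and Btg2 at 0.17 and -0.59, while Jun stood at -3.47 and -1.2.

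Other cells of the same libraries differed less in the heat shock genes, while the immediate early medians lay closer together. The heat shock median for cold over saline was -0.11 in B cells, -0.35 in cDC2 and -0.16 in stromal cells, against -2.4 in pDC, and for CL over saline 0.2, -0.16 and -0.06, against -1. For cold over saline the immediate early medians were -0.61 in B cells, -0.2 in cDC2 and -0.05 in stromal cells, against -0.81 in pDC. For CL over saline they were 0.19, -0.35 and -0.42, against -0.64. Jun, the immediate early gene with the largest difference in pDC, was in cold over saline at -1.51 in B cells, -0.45 in cDC2 and -0.03 in stromal cells. Whether pDC differ from these cells was not tested, as each library is 1 sample. Genes of both lists are known to be induced while tissue is dissociated, and the part of handling in these ratios was not tested.

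**Figure D4:**
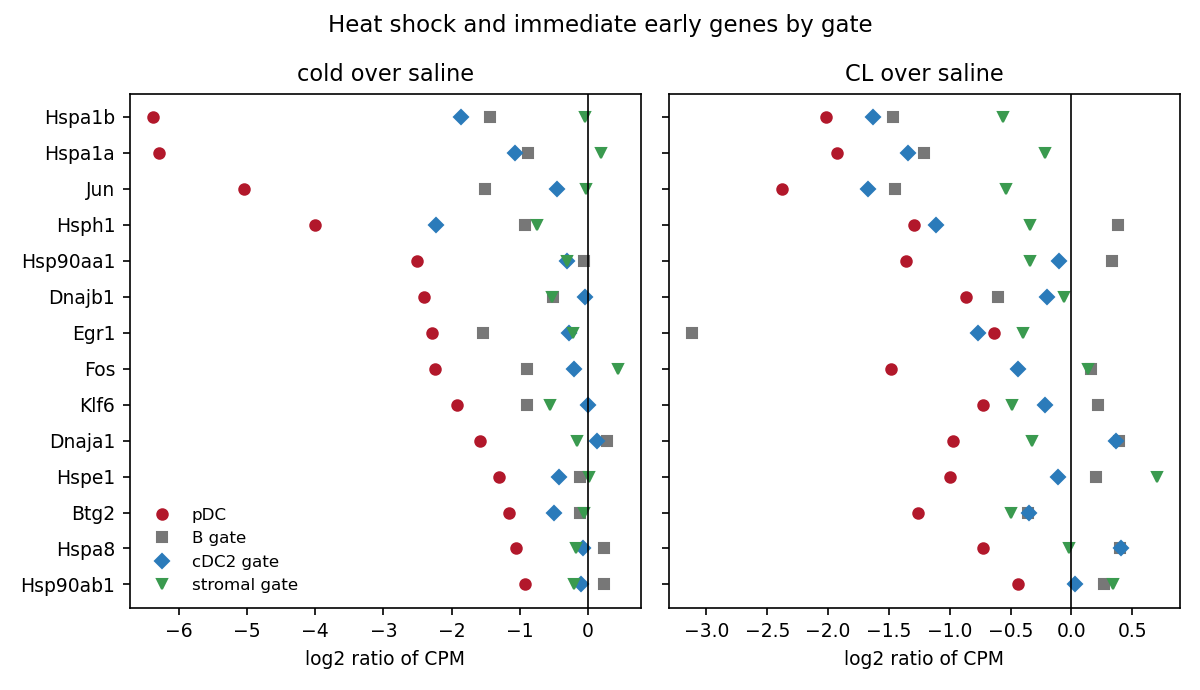
Log2 ratios of CPM for 14 heat shock and immediate early genes in pDC (red) and in the B, cDC2 and stromal gates, for cold over saline (left) and CL over saline (right). The 14 genes were picked from both lists, and all but Hsp90ab1 were past 2-fold lower in pDC in cold. Their pDC values for cold lie from -0.92 (Hsp90ab1) down to -6.38 (Hspa1b), below those of the other 3 gates. For CL this holds for all but Egr1. Because of the choice, this order describes the genes drawn and not the lists. Atf3, not drawn, stood at -0.4 in pDC, -1.54 in B cells and -0.98 in cDC2 for cold over saline.

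The sequence upstream of Hspe1, a mitochondrial chaperonin subunit at 742, 301 and 372 CPM (cold over saline -1.3), shows the heat shock element in this list. The letters GAA, TTC and GAA with any 2 bases between them, on either strand, occurred in 3 of 8 matched heat shock genes (37.5%) and in 0.662% of all genes in the table, in the same 300-base windows. In the 250 bases before the Hspe1 start (chr1:55087898-55088147, plus strand) 2 overlapping matches are in capitals. Hspd1, its partner subunit on the other strand, has a window that overlaps this one. Its matches are the same stretch read on the other strand, so this stretch counts for both genes among the 3.
Hspe1: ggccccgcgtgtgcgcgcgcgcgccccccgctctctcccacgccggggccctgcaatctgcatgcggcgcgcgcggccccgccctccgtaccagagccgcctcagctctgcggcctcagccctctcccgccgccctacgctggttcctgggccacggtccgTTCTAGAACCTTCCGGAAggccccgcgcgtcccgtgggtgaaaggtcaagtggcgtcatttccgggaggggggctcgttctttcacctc
The same stretch of Hspa1a held no match to these exact letters.

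Chemokines were dominated by Ccl4, which draws monocytes and T cells. It was at 2607 CPM in saline, 1065 in cold and 1432 in CL, in 71.9%, 62% and 64% of members (1.15% of stromal barcodes). Cold over saline was -1.29 (-1.45 to -1.14) and CL over saline -0.86 (-1.02 to -0.71). In all other kept barcodes Ccl4 was lower in cold (-1.09) but higher in CL (1.98). Ccl3, a ligand of CCR1, was at 233, 19.4 and 57.2 CPM (cold over saline -3.58). Of 18 cytokine and chemokine genes 7 reached 20 UMIs over cold and saline, and Ccl4, Ccl3 and Ccl5 were past 2-fold lower (background 5.6%) and Il1b past 2-fold higher (background 6.04%) in cold. The median of these genes turned from -0.66 to 0.45 without the 23 members with markers of other cells; Ccl5 did not reach 20 UMIs there. Il12b, Il10 and Gzmb held no UMI.

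Among 17 homing receptors 12 were measured, and 2 were past 2-fold lower in cold (background 5.6%), the CXCL12 receptor Cxcr4 and the lymph node homing receptor Ccr7. Cxcr4 was at 271, 85.1 and 102 CPM (cold over saline -1.67, -2.24 to -1.14; CL over saline -1.42, -2.01 to -0.87), and Ccr7 at 61.7, 17 and 25.4 CPM. Ccr7 is also a marker of mature migratory dendritic cells, and without the 23 members with markers of other cells its ratios went from -1.86 to -0.97 in cold and from -1.28 to -0.53 in CL. Ccr9 was slightly higher in cold and CL, at 826, 1101 and 1032 CPM.

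Antigen presentation genes went in different directions in CL. The main MHC class II genes were lower: Cd74, the invariant chain, was at 4587 CPM in saline, 4935 in cold and 2747 in CL (CL over saline -0.74, -0.85 to -0.63). H2-Aa was at 2712, 2847 and 1702 CPM, H2-Ab1 at 2265, 2387 and 1267 CPM, and H2-Eb1 at 1423, 1386 and 775 CPM, with CL over saline ratios of -0.67, -0.84 and -0.88. The median barcode held 17, 24 and 8 UMIs of Cd74. Class II genes for peptide loading differed less, with H2-DMa at -0.11 (-0.41 to 0.19), H2-DMb1 at -0.15 (-0.71 to 0.39) and H2-Oa at 0.27 (-0.26 to 0.79). The difference was larger in members with 2 to 7 Siglech UMIs, where H2-Aa was at 3877 CPM in saline and 1386 in CL, than in those with 8 or more, at 2363 and 2206 CPM; for Cd74 the values were 5696 and 2311, and 4254 and 3441 CPM. The class I genes were higher in CL, with H2-K1 at 0.42 (0.28 to 0.55), H2-D1 at 0.5 (0.35 to 0.64) and the peptide transporter Tap1 at 0.97 (0.45 to 1.5). In B cells Cd74 and H2-Aa stood at 0.04 and 0.08 for CL over saline. Cd74 stood at -0.17 in cDC2, -0.02 in stromal cells and -0.7 in all other kept barcodes, so a lower value in CL was not particular to pDC. Of 15 list genes measured, 1, H2-DMb2, was past 2-fold lower in CL, a share near the background of 5.19%.

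Among the lymphoid genes of pDC, 9 of 13 measured were below 0 in CL over saline (43.2% of all genes were). The 2 past 2-fold lower were Cd8a at 142, 105 and 41.3 CPM (CL over saline -1.78, -2.74 to -0.94) and Igkc at 253, 202 and 114 CPM (-1.15, -1.71 to -0.62). Plasma cell markers summed to 133, 212 and 149 CPM in the members, and the part of free plasma cell RNA in the Igkc ratio was not tested. Dntt was at 208, 199 and 137 CPM, and Cd8b1 at 205, 301 and 270 CPM; the 2 chains of CD8 thus differed in direction. Ly6c2, a surface protein of pDC and monocytes chosen from a list of pDC subset genes, was at 871, 1250 and 1969 CPM (CL over saline 1.18, 1.01 to 1.34). It was also higher in CL in B cells (4.09), cDC2 (2.03) and stromal cells (3.84).

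Over all genes, 655 of 5625 (11.6%) were past 2-fold in cold over saline, 585 of 5352 (10.9%) in CL over saline and 396 of 4593 (8.62%) in CL over cold, 4.68% higher and 3.94% lower. Of these, 35, 31 and 42 had at least 50% of their UMIs in the higher library in 1 barcode. In cold over saline 51.9% of the 655 genes were higher in cold, and 40.1% of 634 with median-of-ratios scaling. For CL over saline 52.5% were higher, and 43.3% with that scaling, so the split between directions rests on the scaling.

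Other genes were higher in cold outside these groups. Crem, a cAMP-responsive repressor, was at 35.5 CPM in saline, 323 in cold and 121 in CL, in 19 of 153, 50 of 79 and 28 of 86 members, with a cold over saline ratio of 3.19 (2.54 to 3.9) and a CL over saline ratio of 1.77 (0.98 to 2.58). In cold over saline it was at 1.23 in B cells, 0.03 in cDC2 and -0.08 in stromal cells. The transcriptional coregulator Mn1 held 5, 34 and 5 UMIs in 5, 29 and 5 barcodes (cold over saline 3.42, 2.06 to 5.13). Slc15a2, a peptide transporter, held 1, 20 and 2 UMIs, and was higher in cold in every gate examined (3.5 in B cells, 3.3 in cDC2, 3.38 in stromal cells). Bcl2l11, the death-promoting BIM, was higher in both treated libraries (1.51 and 1.42), and so was the lipoprotein receptor Lrp8, at 193, 396 and 473 CPM (1.04, or 0.95 without the 23 members with markers of other cells, and 1.3).

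Several of the largest ratios came from 1 barcode. Lyz2 was at 64.8, 4303 and 419 CPM, and 1640 of the 1770 cold UMIs lay in 1 barcode of 19647 UMIs, the deepest member; without the 23 members with markers of other cells the cold over saline ratio turned from 6.05 to -1.61. Apoe turned from 2.3 to -1.73 in the same way. Il22ra2 had 66 of 72 UMIs in 1 cold barcode. Dnase1l3, a secreted DNase, had only 23 of 67 in 1 barcode. Its cold over saline ratio of 3.4 was 3.12 without each gene's highest barcode and 2.61 without the 23 members. In CL, the mast cell proteases Cma1, Mcpt4, Tpsb2 and Cpa3 had 77 of 78, 46 of 46, 36 of 36 and 32 of 32 UMIs in 1 barcode. In saline, Ccl5 had 215 of 217 UMIs in 1 barcode.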

How the data were processed

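The 3 libraries were 10x Chromium 3' v3 single-cell libraries. The deposited values are raw UMI counts for 28692 genes per barcode, made with Cell Ranger 3.0.2 per the file headers and on mm10 per the submitters' processing notes. Each deposited barcode held at least 500 UMIs.

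Members were gated on these counts. UMIs were summed over the members of a library and given as CPM. A gene was measured in a comparison with at least 20 UMIs over both libraries, and a log2 ratio of 1 or more in size is called past 2-fold. A library at 0 was set to 3 counts, which makes its ratio a bound. Intervals are 95%, exact Poisson for CPM, exact conditional binomial for ratios of counts and Clopper-Pearson for shares; those of ratios of shares use a normal approximation on the log scale. All cover counting error only, and UMIs of 1 barcode are not independent samples. Python 3.11.15, numpy 2.4.6, scipy 1.17.1, pandas 2.3.3, scanpy 1.11.5 and matplotlib 3.10.9 were used, and the ratios were tested on simulated data.

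Doublets were kept. Scrublet marked 86 saline, 4 cold (0.104% of kept barcodes, too few to count as a working call) and 64 CL barcodes, 6 of them members. Promoter sequences are from RefSeq (GRCm38.p6); gene coordinates are GRCm38. Named genes were the markers, the 25 genes highest over other barcodes, the 8 highest and 8 lowest per comparison by the nearer interval bound, the up to 6 most abundant members of each list, and list members past 2-fold. Genes named outside this rule are marked as such, and some genes of the lists are not reported here. The members and lists were chosen with earlier results of these data known. The alternatives tried were the Siglech, marker, mitochondrial, C1q and gene limits, doublet removal, scaling, the UMI minimum and equal weight per barcode. Leaving out members with markers of other cells, and each gene's highest barcode, was added after seeing the data.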

Additional observations from a re-analysis of the deposited data

How the results depend on the processing

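Each of 7 other settings of the gate took a part of the same members. The count of 0 interferon UMIs could therefore not change, and these settings do not test it. The share of pDC for CL over saline was -1.31 with at least 1000 genes per barcode, and the other 20 share values lay within the main intervals, from -1.04 to -0.16. The number of genes past 2-fold in cold over saline, CL over saline and CL over cold was 251, 314 and 202 with at most 5% mitochondrial UMIs, 3447, 4048 and 3504 with no UMI minimum, and 261, 168 and 85 with at least 50 UMIs; the other 27 counts lay from 302 to 701. Fewer members, or another number of genes counted, go into these settings.

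The interferon response median stayed above 0 for CL over saline and CL over cold under every setting run. For cold over saline it was -0.49 with at least 4 Siglech UMIs, -0.54 with at most 5% mitochondrial UMIs, -0.01 without doublets, -0.1 with no C1q UMI, 0.06 without the members rich in other markers, -0.36 with median-of-ratios scaling, 0.05 with equal weight per barcode and -0.4 without each gene's highest barcode. For CL over saline it was 1.96 with at least 4 Siglech UMIs, 2.01 with 2 of 3 other markers required, 1.56 with at most 5% mitochondrial UMIs, 1.97 with no C1q UMI, 1.77 without the members rich in other markers, 1.29 with at least 50 UMIs, 1.97 with equal weight per barcode and 2.42 without each gene's highest barcode. For CL over cold it was 2.09 with at least 4 Siglech UMIs, 1.9 with 2 of 3 markers, 2.16 with at most 5% mitochondrial UMIs, 1.92 with no UMI minimum and 2.09 without each gene's highest barcode. The cause was not tested.

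Of 1343 values of named genes under other settings, 13 changed direction, all in 5 genes. Lyz2 was -1.61 (cold over saline) and -0.43 (CL over saline) without the members rich in other markers, -0.99 (CL over saline) without doublets, and for CL over cold 0.5 with at most 5% mitochondrial UMIs and 1.12 with no C1q UMI. Apoe in cold over saline was -0.9 without doublets, -1.73 with no C1q UMI and -1.73 without the members rich in other markers, and in CL over cold 1.27 with no C1q UMI and 1.5 without those members. Il4i1 was -0.21 (cold over saline) with no C1q UMI, Btg2 0.17 (cold over saline) with at most 5% mitochondrial UMIs, and Egr1 -0.14 (CL over cold) without the members rich in other markers. Median-of-ratios scaling shifted cold and CL by 0.09 and 0.08 on the log2 scale. No paired analysis was possible because each group has 1 library.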

Other observations

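Several genes best known from striated muscle, chosen after their values were seen, were high in pDC. Besides Cox6a2, the calcium pump Atp2a1 was at 97.5 CPM in the pooled members (119-fold over other kept barcodes), the glycolytic enzyme Pgam2 at 62.6 CPM (124-fold) and Sh3bgr at 86.6 CPM (163-fold). Each was found in all 3 libraries, with 47, 39 and 48 UMIs of Atp2a1 and 27, 28 and 31 of Pgam2 in saline, cold and CL. The muscle genes Acta1, Ckm, Myh1, Myh4, Myl1 and Tnnt3 held no UMI in the members.

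Il12a, a subunit of interleukin 12, held 0, 7 and 0 UMIs in saline, cold and CL. Adrb3, the target of CL, held none in the members. Genes of cell division were low, with 14 of 16 genes of the G2/M list past 2-fold lower than in other kept barcodes (background 21.8%).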
